A study of Rattus norvegicus with 18 samples.

Results

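Cytosolic heat shock proteins and co-chaperones were followed as 10 genes in RNA-seq libraries of rat brain: Hspa1b, Hspa8, Hspa4, Hsph1, Hsp90aa1, Hsp90ab1, Dnajb1, Dnaja1, Bag3 and Hspb1. They were chosen by name: a member is the row of the count table whose gene name equals the symbol, 10 of the 34873 rows. All 10 passed the filter on low counts, which left 16581 genes to test. The 18 libraries fall into 3 groups of 6. NC libraries came from rats of genotype WT with the treatment given as NA, and CO libraries from rats of genotype WT that had inhaled carbon monoxide. CLCF1 libraries came from rats that had also inhaled carbon monoxide, with the genotype given as CLCF1knock-down. The design text describes 1000 ppm of the gas for 40 min, then 3000 ppm for 20 min, with carboxyhemoglobin over 60% as the mark of a successful model. It also describes lentiviral knock-down of Clcf1 in macrophages grown from bone marrow, and their transfer into rats whose own macrophages had been depleted with liposomes. Whether NC and CO rats were depleted or given cells, the strain, age, brain region and time after exposure, and whether each library is a separate animal are not stated in the labels. The p-values thus rest on differences among libraries alone, and these can be technical.

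Heat shock proteins of the cytosol bind unfolded proteins and help them to fold, to be taken apart from aggregates or to be degraded. HSP70 proteins (Hspa genes) hold a client while ATP is split, HSP40 proteins (Dnaj genes) bring the client and stimulate that step, and HSP110 proteins and BAG proteins exchange the nucleotide. HSP90 proteins act later on kinases and steroid receptors, and small heat shock proteins such as Hspb1 hold unfolded clients without ATP. In stressed cells, heat shock factor 1 binds repeated GAA units in promoters and raises the transcription of the inducible members, while Hspa8 and Hsp90ab1 are the constitutive forms that brain cells hold in large amounts.

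The depth was 15.1 to 20.3 M counts per library (17.5 ± 1.47 M, mean ± SD, n = 18). Clcf1, which encodes a secreted cytokine, was at 0.161 ± 0.0905 CPM (counts scaled to the library's total) in NC, 6.23 ± 1.04 in CO and 0.0549 ± 0.0701 in CLCF1 libraries (SD, n = 6 each). Libraries 3 to 6 of each group stood apart from libraries 1 and 2. In 42660 cases a gene had no count in libraries 1 and 2 of a group, and in 0 of these did libraries 3 to 6 of that group hold any count. Libraries 1 or 2 of the other groups held a count in 2.9% to 8.92% of such cases. Libraries 3 to 6 may therefore not be independent samples, and every SD, SE, adjusted p and count of non-overlapping libraries over 6 libraries takes them to be so. Results are given over all 6 libraries and with libraries 1 and 2 alone. Markers of neurons, astrocytes, oligodendrocytes and microglia were all detected, whereas the endothelial marker Cldn5, the hypothalamic marker Pmch and the keratin genes Krt5 and Krt14 were at 0 in all libraries. The summed level of 8 neuronal markers was 4846 to 5322 CPM in NC, 6050 to 6582 in CO and 5494 to 6502 in CLCF1 libraries. Markers of other cell types and regions moved with the groups. In CLCF1 against CO, 5 of 6 choroid plexus markers were higher. The sum of 6 choroid plexus markers was 6.92 to 218 CPM in NC, 0.882 to 42.3 in CO and 65.6 to 5963 in CLCF1 libraries. The sum of 5 hypothalamic markers was 4.07 to 11.6 CPM in NC, 5.54 to 299 in CO and 4.47 to 58.1 in CLCF1 libraries. The 7 markers of fibroblasts and meninges summed to 445 to 602, 244 to 543 and 351 to 543 CPM, and the 6 cortical markers to 795 to 1013, 1150 to 1567 and 864 to 1354 CPM. The 7 markers of pericytes and smooth muscle summed to 247 to 318 CPM in NC, 105 to 204 in CO and 132 to 211 in CLCF1 libraries, so that NC overlapped with neither. The 6 monoamine neuron markers summed to 27.1 to 282, 16.4 to 63.7 and 23.6 to 62.9 CPM, and the 4 blood cell markers in the table to 0.602 to 319, 0.504 to 1.55 and 2.03 to 4.77 CPM. The part of these shifts in the results below was not tested, and in bulk tissue fewer cells of a type and less RNA per cell cannot be told apart.

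Promoters of the members were searched for heat shock elements because these units are the known link between heat shock factor 1 and this gene group. RefSeq promoter windows on GRCr8, from 250 bases before to 50 bases after the gene start, were matched by symbol for 8 of the 10 members, all but Hspa1b and Hsp90aa1. The motifs were GAANNTTC and TTCNNGAA (2 inverted units, each its own reverse complement, so that both strands are covered) and the 3-unit forms GAANNTTCNNGAA and TTCNNGAANNTTC, in which 2-unit matches overlap. A 2-unit element was found in 6 of the 8 windows, against 15.9% of 33469 RefSeq promoters, and 5 of the 8 held 2 or more, against 2.28%. A 3-unit element was found in 3 of the 8 (Hspa8, Hsph1 and Dnaja1), against 0.798%. The windows of Hsp90ab1 and Hspa4 held none of these letters. A match describes the sequence and is not evidence of binding. Shown here are the 250 bases before the start for the 4 matched members whose named rows were higher in CO than in NC libraries. Elements are in capitals.
Dnajb1: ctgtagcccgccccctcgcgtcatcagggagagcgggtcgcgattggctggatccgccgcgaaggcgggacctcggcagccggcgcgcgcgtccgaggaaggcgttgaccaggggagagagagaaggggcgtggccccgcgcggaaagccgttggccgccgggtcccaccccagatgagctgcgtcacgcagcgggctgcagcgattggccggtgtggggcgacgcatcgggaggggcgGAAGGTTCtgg
Bag3: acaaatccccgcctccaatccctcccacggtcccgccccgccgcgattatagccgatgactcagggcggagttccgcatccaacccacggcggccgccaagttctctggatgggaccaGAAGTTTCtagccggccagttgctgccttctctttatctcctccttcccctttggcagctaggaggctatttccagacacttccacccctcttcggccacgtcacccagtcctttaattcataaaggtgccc
Dnaja1: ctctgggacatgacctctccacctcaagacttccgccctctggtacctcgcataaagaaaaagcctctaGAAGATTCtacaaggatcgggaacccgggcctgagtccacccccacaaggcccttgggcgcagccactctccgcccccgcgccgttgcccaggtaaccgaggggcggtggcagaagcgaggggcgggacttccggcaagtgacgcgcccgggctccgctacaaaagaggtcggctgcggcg
Hspa8: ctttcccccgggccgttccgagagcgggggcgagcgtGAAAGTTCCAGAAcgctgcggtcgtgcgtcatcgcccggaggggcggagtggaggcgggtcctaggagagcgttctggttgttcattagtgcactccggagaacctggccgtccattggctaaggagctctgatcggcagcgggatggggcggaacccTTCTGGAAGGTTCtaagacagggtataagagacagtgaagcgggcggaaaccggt
The Dnajb1 sequence is chr19:41431142-41431391 on the minus strand and holds 1 element, GAAGGTTC, 11 bases before the start. A second Dnajb1 element, GAAGCTTC, starts at position 18 after it and is not shown. The Bag3 sequence is chr1:192533210-192533459 on the plus strand, with GAAGTTTC 132 bases before the start. The Dnaja1 sequence is chr5:60638154-60638403 on the plus strand, with GAAGATTC 181 bases before the start. The 3-unit element of Dnaja1 lies after its start. The Hspa8 sequence is chr8:50080264-50080513 on the plus strand and holds a 3-unit element at each of 2 places, 213 and 55 bases before the start. It belongs to the Hspa8 locus of RefSeq, which is not the row that the count table names Hspa8. AABR07070032.1, whose neighbours match that locus better than those of the named row, did not pass in CO against NC (log2 fold change 0.14 ± 0.10, edgeR adjusted p = 0.331).

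**Figure D1:**
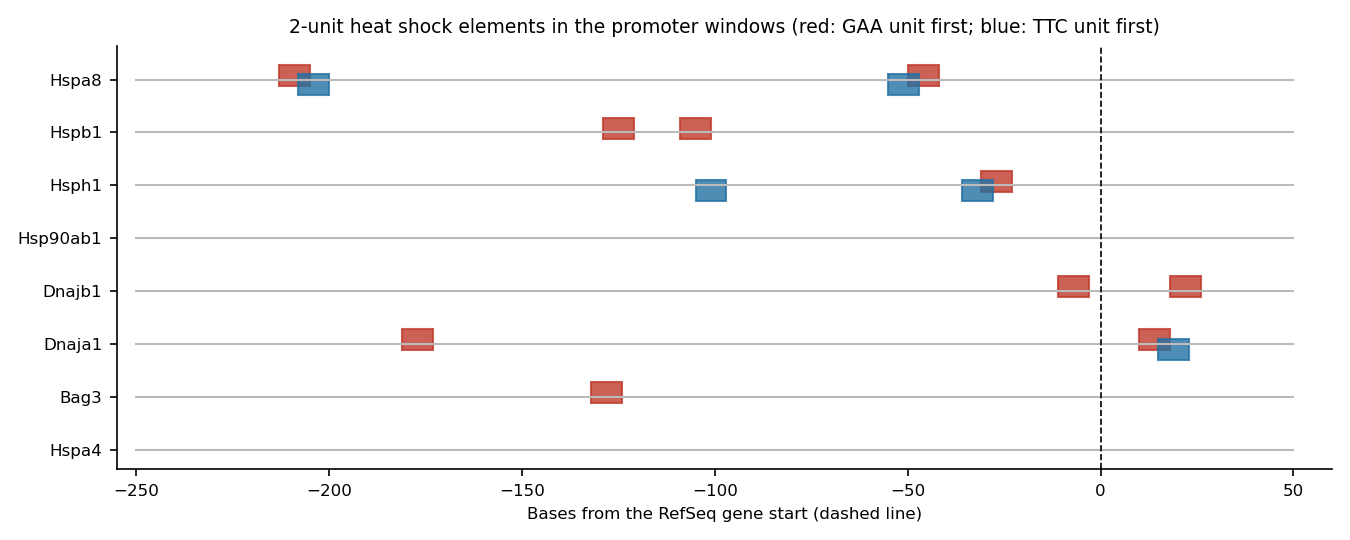
Positions of 2-unit heat shock elements in the 8 matched promoter windows, in bases from the RefSeq gene start (dashed line). Red boxes are matches with the GAA unit first and blue boxes those with the TTC unit first, and overlapping boxes form 3-unit elements in Hspa8, Hsph1 and Dnaja1.

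In CO against NC, 5 of the 10 members were higher and 0 were lower (edgeR quasi-likelihood test, Benjamini-Hochberg adjustment over all genes tested, threshold 0.05). The background was 12.7% of the genes tested in either direction, 6.32% higher and 6.4% lower. The 5 were Hspa1b, Hspa8, Dnajb1, Dnaja1 and Bag3. In each of these, all 6 CO libraries lay above all 6 NC libraries, which held for 3.15% of the genes tested. The median log2 fold change of the 10 members was 0.47, against 0.007 over all genes tested. In CLCF1 against CO, 0 members were higher and 4 were lower, Hspa1b, Hspb1, Dnajb1 and Bag3, with a background of 17.0% in either direction, 8.63% higher and 8.34% lower. For Hspa1b, Dnajb1 and Bag3 all 6 CLCF1 libraries lay below all 6 CO libraries, which held for 3.65% of the genes tested. The median here was -0.29, against 0.002 over all genes. In CLCF1 against NC, 1 member was higher (Hspa8) and 1 was lower (Dnajb1), with a background of 9.26% in either direction, 4.43% higher and 4.84% lower. For Hspa8 all 6 CLCF1 libraries lay above all 6 NC libraries, as for 2.73% of the genes tested. The named Hspa8 row held 3.05% of the counts described as this gene. For the sum of the 9 rows so described, neither comparison with NC passed (0.27 in CO and -0.09 in CLCF1 libraries, edgeR adjusted p = 0.0574 and 0.592). CO libraries are shared by the first 2 comparisons, so a fall after a rise of the same gene is not independent evidence, and the direct comparison of CLCF1 with NC is given for such genes. With libraries 1 and 2 alone, no member passed in any comparison. That fit of 2 libraries a group called 4, 8 and 2 genes of 16820, with 594, 817 and 418 at an unadjusted p under 0.05. By the CPM of these libraries, both CO libraries lay above both NC libraries for 7 of the 10 members (17.0% of the 16581 genes tested in the main fit). Both CLCF1 libraries lay below both CO libraries for 5 members (14.0% of the 16581).

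**Figure D2:**
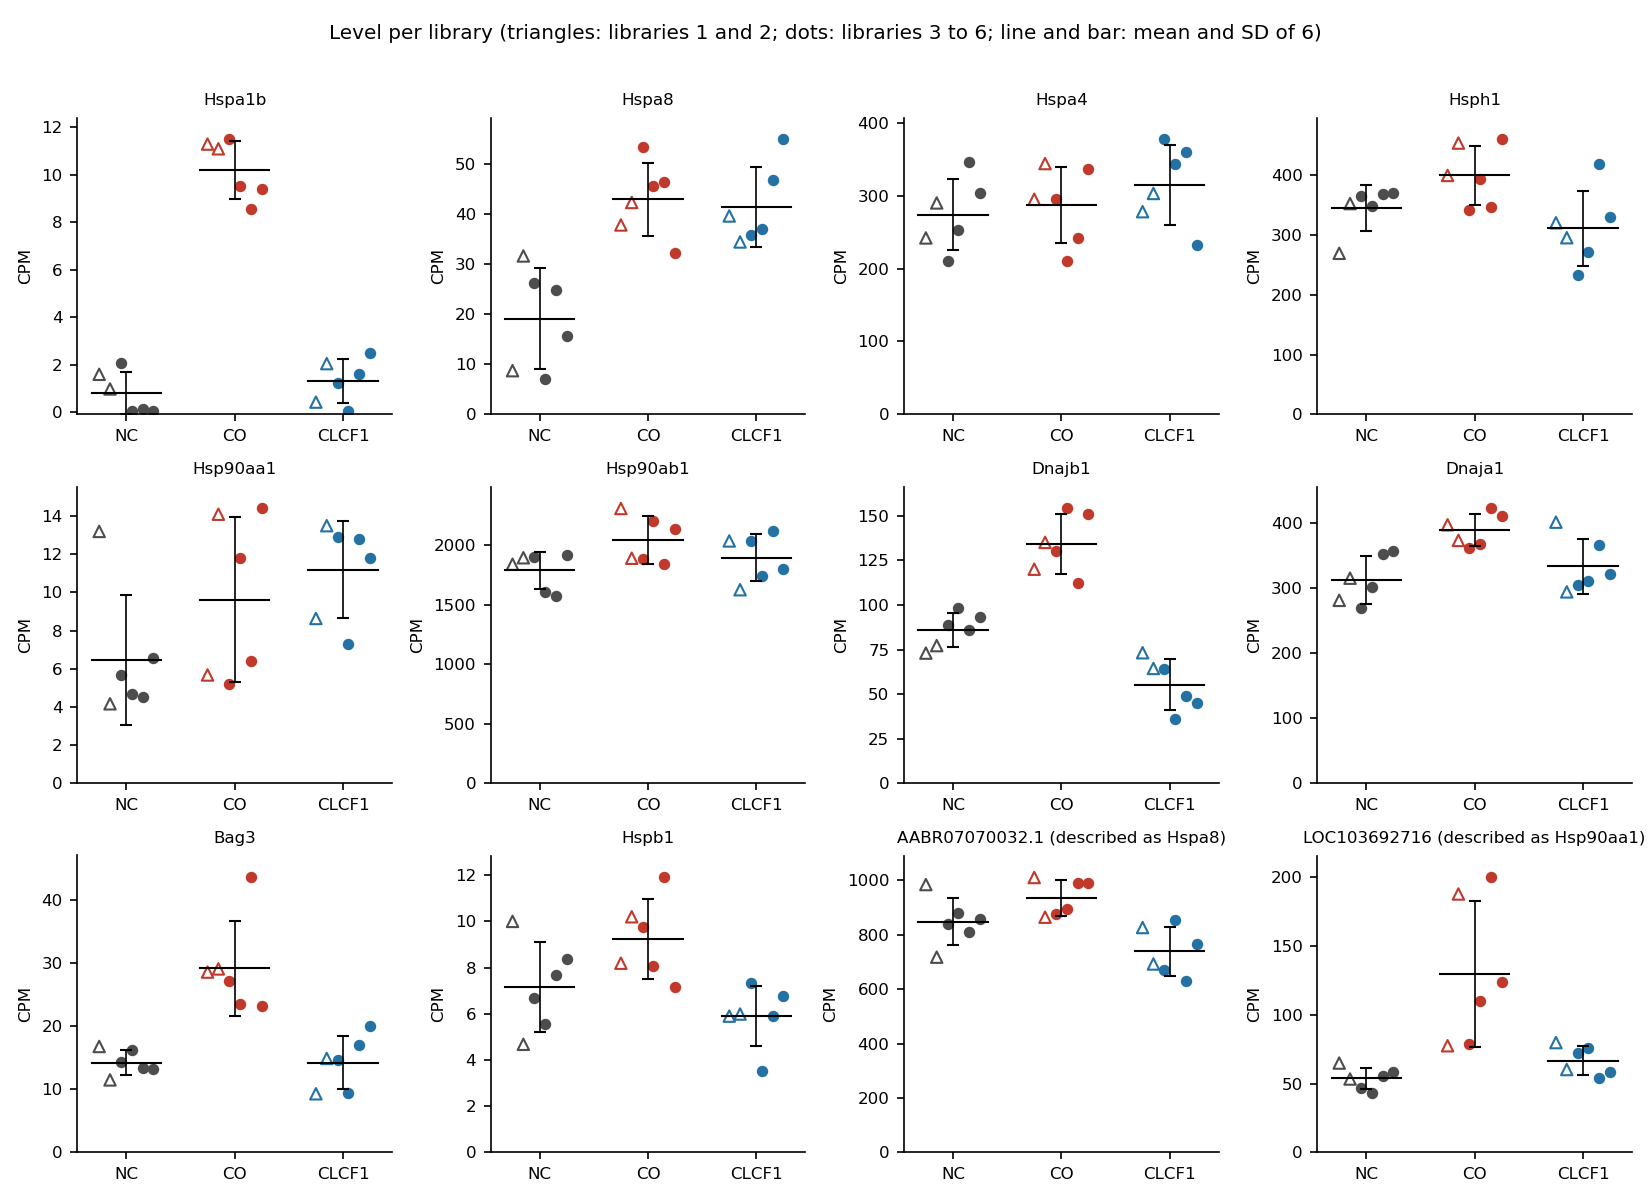
CPM of the 10 members and of 2 rows that the table describes as Hspa8 and Hsp90aa1, in the 6 libraries of each group on linear axes. Triangles are libraries 1 and 2, dots are libraries 3 to 6, and the line and bar are the mean and SD. Hspa1b, Dnajb1 and Bag3 show CO libraries above all others.

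Hspa1b encodes the strictly inducible HSP70. Its row (chr20:4877324-4879779, minus strand, as the table gives it, build not named) held 24, 21, 37, 1, 2 and 1 counts in NC libraries 1 to 6. It held 189, 172, 183, 150, 136 and 148 counts in the CO libraries, and 7, 42, 23, 1, 30 and 46 in the CLCF1 libraries. Every CO library was above every library of the other groups, which overlapped each other. Mean levels were 0.812 ± 0.88 CPM in NC, 10.2 ± 1.23 in CO and 1.31 ± 0.935 in CLCF1 libraries (SD, n = 6). The log2 fold change was 3.65 ± 0.71 (SE) in CO against NC (edgeR adjusted p = 0.00353) and -2.95 ± 0.68 in CLCF1 against CO (edgeR adjusted p = 0.00677). CLCF1 against NC gave 0.70 ± 0.69 (edgeR adjusted p = 0.573). With libraries 1 and 2 alone the log2 fold changes were 3.12, -3.19 and -0.07. Within the NC group, libraries 4, 5 and 6 held 1 or 2 counts and libraries 1, 2 and 3 held 21 to 37.

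Reads of Hspa1b can be shared with its near-identical copy Hspa1a, whose own row held at most 11 counts in any library, 0 in all 6 CLCF1 libraries, and did not pass the filter. In NC libraries 4, 5 and 6 Hspa1a held 2, 8 and 3 counts, more than Hspa1b, and over all NC libraries it held 23.2% of the counts of the pair. The sum of both rows gave 3.34 in CO against NC (edgeR adjusted p = 0.00209) and -3.00 in CLCF1 against CO (edgeR adjusted p = 0.00261). For CLCF1 against NC the sum gave 0.33 (edgeR adjusted p = 0.775). Of the 6 nearest named neighbours of RefSeq Hspa1b, the Hspa1b row shared 1 (Hspa1l) and the Hspa1a row 0. The Hspa1b row also lies inside 3 long rows on the same strand, RT1-CE7, RT1-CE4 and RT1-CE2, class I histocompatibility genes. RT1-CE7 was at 2.16 ± 0.71 CPM in NC, 1.74 ± 1.48 in CO and 3.84 ± 0.789 in CLCF1 libraries, and RT1-CE4 at 4.15 ± 0.603, 2.63 ± 0.944 and 2.39 ± 0.697 CPM. Neither passed in any comparison, and each had its highest mean outside the CO group. RT1-CE2, which did not pass the filter, was at 0.129 ± 0.0938, 0.345 ± 0.0721 and 0.166 ± 0.104 CPM, and so was highest in CO libraries. How the authors counted reads in overlapping genes is not given in the sources used here.

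Hspa8 encodes the constitutive HSP70 that, among other roles, uncoats clathrin vesicles at synapses. The row named Hspa8 (chr5:99031013-99033107, minus strand) was at 8.75, 31.7, 26.3, 7.13, 24.8 and 15.6 CPM in NC libraries 1 to 6. CO libraries held 37.9, 42.4, 53.5, 45.6, 46.5 and 32.2 CPM, and CLCF1 libraries 39.7, 34.5, 35.8, 37.1, 46.9 and 55.0 CPM. All CO and all CLCF1 libraries were above all NC libraries, and CO and CLCF1 overlapped. The log2 fold change was 1.17 ± 0.28 in CO against NC (edgeR adjusted p = 0.0122) and 1.12 ± 0.28 in CLCF1 against NC (edgeR adjusted p = 0.0186). CLCF1 against CO gave -0.05 ± 0.28 (edgeR adjusted p = 0.923). With libraries 1 and 2 alone the values were 0.98, 0.86 and -0.12 in the same order.

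The row named Hspa8 holds little of the RNA that the table attributes to this gene. The table describes 9 rows as Hspa8, and the named row held 3.05% of their counts (0.66% to 5.06% by library). AABR07070032.1 (chr8:44990014-44993179, plus strand) held 73.7%. Of the 6 nearest named neighbours of RefSeq Hspa8, AABR07070032.1 shared 5 (Scn3b, Gramd1b, Clmp, Bsx and Crtam) and the named row 0. These rows were singled out after their values were seen. AABR07070032.1 was at 849 ± 87.1 CPM in NC, 937 ± 65.8 in CO and 740 ± 90.4 in CLCF1 libraries. Its log2 fold change was 0.14 ± 0.10 in CO against NC (edgeR adjusted p = 0.331), and the groups overlapped. It was lower in CLCF1 than in CO libraries, by -0.34 ± 0.10 (edgeR adjusted p = 0.0195), with all 6 CLCF1 libraries below all CO libraries, and CLCF1 against NC gave -0.20 ± 0.10 (edgeR adjusted p = 0.202). Among the other rows, LOC680121 (13.3% of the counts) was higher in CO than in NC (0.64 ± 0.19, edgeR adjusted p = 0.0317). It was lower in CLCF1 than in CO (-0.58, edgeR adjusted p = 0.0401), with 0.06 in CLCF1 against NC (edgeR adjusted p = 0.878). Groups overlapped in both LOC680121 calls, and each call was lost without any 1 of 7 libraries (edgeR adjusted p of up to 0.0685 and 0.0822). The pseudogene AABR07063544.1 (2.66%) was higher in CO than in NC (1.25 ± 0.20, edgeR adjusted p = 0.0012) and in CLCF1 than in NC (0.75, edgeR adjusted p = 0.0267). Its call in CLCF1 against NC, with overlapping groups, was lost without any 1 of 5 libraries (edgeR adjusted p of up to 0.0637). Near-identical copies share reads, so the rows cannot be told apart with certainty. For the sum of all 9 rows, the log2 fold changes were 0.27 in CO against NC, -0.35 in CLCF1 against CO and -0.09 in CLCF1 against NC, with edgeR adjusted p of 0.0574, 0.012 and 0.592.

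**Figure D3:**
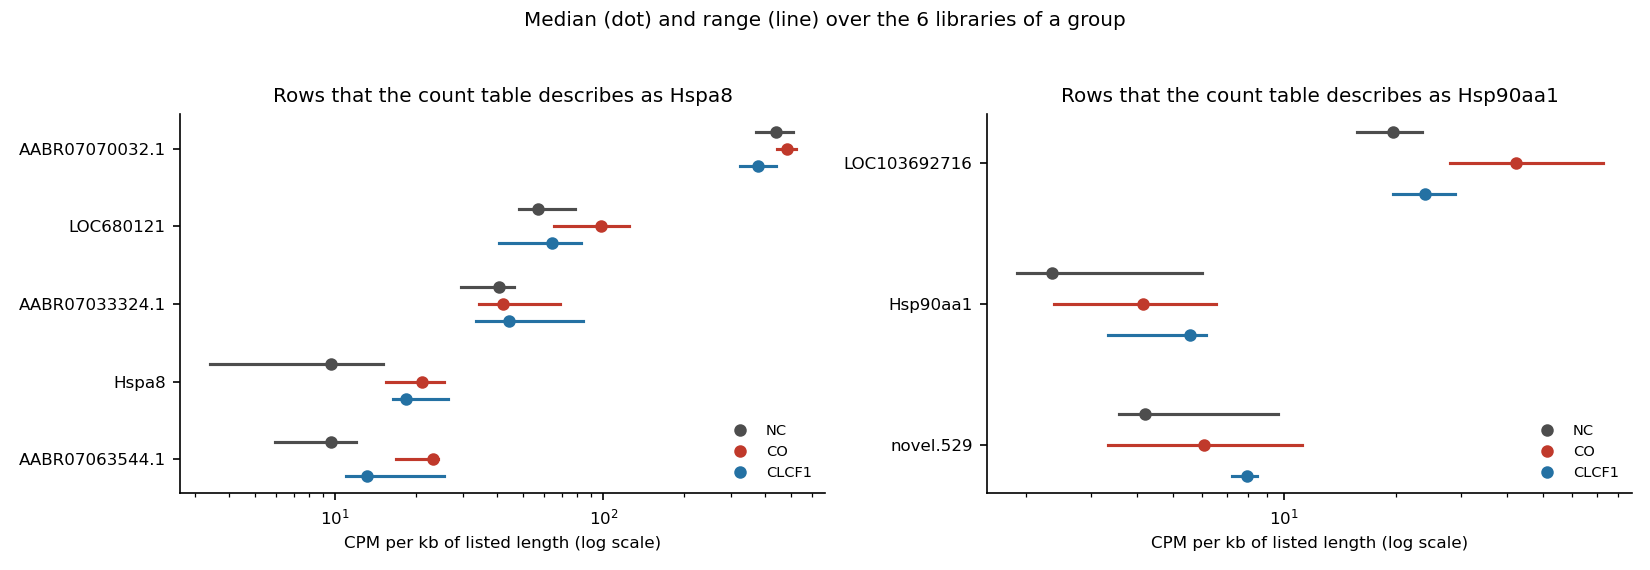
CPM per kb of listed length (log scale) of the 5 largest rows described as Hspa8 (left) and of the 3 rows with counts described as Hsp90aa1 (right). Dots are medians and lines the range over the 6 libraries of a group. In both panels the row with the highest level is not the row that carries the gene's name.

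Neither of the HSP110-type members passed in any comparison. Hsph1, the HSP110 that exchanges nucleotide on HSP70, was at 345 ± 38 CPM in NC, 399 ± 49.9 in CO and 311 ± 62.7 in CLCF1 libraries. Groups overlapped in each comparison, and the log2 fold changes were 0.21 (edgeR adjusted p = 0.28), -0.36 ± 0.13 in CLCF1 against CO (edgeR adjusted p = 0.057) and -0.15 (edgeR adjusted p = 0.496). DESeq2 called Hsph1 lower in CLCF1 than in CO (DESeq2 adjusted p = 0.0312). Hspa4, a second HSP110-type exchange factor, was at 274 ± 48.6, 287 ± 52.2 and 315 ± 55 CPM and passed in no comparison.

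The HSP40 genes Dnajb1 and Dnaja1 were higher in CO libraries. Dnajb1, the HSP40 that works with inducible HSP70, was at 73.0, 77.2, 88.8, 98.1, 85.9 and 93.3 CPM in NC libraries 1 to 6. CO libraries held 120, 135, 130, 154, 112 and 151 CPM, and CLCF1 libraries 73.2, 64.4, 64.1, 36.0, 48.9 and 45.0 CPM. CO libraries were above all others, and 5 of 6 CLCF1 libraries were below every NC library. The log2 fold change was 0.64 ± 0.15 in CO against NC (edgeR adjusted p = 0.00956), -1.28 ± 0.15 in CLCF1 against CO (edgeR adjusted p = 0.000147) and -0.64 ± 0.15 in CLCF1 against NC (edgeR adjusted p = 0.0118). With libraries 1 and 2 alone these were 0.75, -0.90 and -0.15, with overlapping NC and CLCF1 libraries in the last. Dnaja1, an HSP40 that is abundant in the cytosol, was at 312 ± 36.5 CPM in NC, 389 ± 25.1 in CO and 333 ± 41.7 in CLCF1 libraries. Its lowest CO library (361 CPM) was above its highest NC library (357 CPM), a rise of 0.32 ± 0.10 (edgeR adjusted p = 0.039). That call was lost without any 1 of 7 libraries (NC 1, 2, 3 or 4, or CO 1, 5 or 6), with an adjusted p of up to 0.081. CLCF1 against CO gave -0.22 ± 0.10 (edgeR adjusted p = 0.117) and CLCF1 against NC 0.09 ± 0.10 (edgeR adjusted p = 0.599).

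Bag3, a co-chaperone that links HSP70 to autophagy of its clients, was at 16.8, 11.5, 14.3, 16.2, 13.4 and 13.2 CPM in NC libraries 1 to 6. CO libraries held 28.6, 29.1, 27.2, 23.6, 43.6 and 23.2 CPM, and CLCF1 libraries 9.3, 14.9, 14.6, 9.44, 17.0 and 20.0 CPM. CO libraries were above all others, and NC and CLCF1 libraries overlapped. The log2 fold change was 1.04 ± 0.19 in CO against NC (edgeR adjusted p = 0.00291), -1.04 ± 0.19 in CLCF1 against CO (edgeR adjusted p = 0.00216) and 0.00 ± 0.19 in CLCF1 against NC (edgeR adjusted p = 0.999). With libraries 1 and 2 alone these were 1.01, -1.27 and -0.26.

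Hspb1, the small heat shock protein HSP27, was at 7.17 ± 1.94 CPM in NC, 9.23 ± 1.74 in CO and 5.90 ± 1.30 in CLCF1 libraries. CO against NC gave 0.37 ± 0.20 (edgeR adjusted p = 0.241). It fell by 0.64 on the log2 scale in CLCF1 against CO (SE 0.20, edgeR adjusted p = 0.0364), with overlapping groups. Leaving out CO library 2, 3 or 5 or CLCF1 library 2, 4 or 5 ended that call, with an adjusted p of up to 0.0724. CLCF1 against NC gave -0.28 (edgeR adjusted p = 0.427).

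Neither HSP90 gene passed by its named row. Hsp90ab1, the constitutive cytosolic HSP90, had the highest level per length of the members, 1786 ± 156 CPM in NC, 2041 ± 198 in CO and 1891 ± 196 in CLCF1 libraries. CO against NC gave 0.19 ± 0.09 (edgeR adjusted p = 0.174), and the other comparisons gave -0.11 and 0.08. The row named Hsp90aa1, the inducible HSP90 (chr6:135045363-135049728, minus strand), was at 6.47 ± 3.41, 9.62 ± 4.32 and 11.2 ± 2.56 CPM and passed in no comparison, with 0.58 ± 0.31 in CO against NC (edgeR adjusted p = 0.233). Without NC library 1, the highest of its group at 13.2 CPM, the named row was higher in CO than in NC (edgeR adjusted p = 0.0404). The same held for CLCF1 against NC (edgeR adjusted p = 0.0205). This row overlaps Dync1h1 on the opposite strand (78.0 ± 29.3, 41.4 ± 30.3 and 59.8 ± 41.4 CPM), and since strandedness is not stated, reads of the pair cannot be told apart. LOC103692716 (chr6:135107271-135112775, minus strand) is also described as Hsp90aa1 and held 81.6% of the counts of the 4 rows so described, against 9.07% for the named row. It was at 65.0, 53.4, 47.2, 43.2, 55.4 and 58.8 CPM in NC libraries 1 to 6 and at 77.6, 188, 79.1, 110, 200 and 124 CPM in CO libraries. CLCF1 libraries held 79.9, 60.3, 72.0, 75.7, 54.3 and 58.8 CPM. All CO libraries were above all NC libraries, and CO libraries 1 and 3 were below the highest CLCF1 library. LOC103692716 was higher in CO than in NC by 1.27 ± 0.21 (edgeR adjusted p = 0.00133) and lower in CLCF1 than in CO, -0.96 ± 0.21 (edgeR adjusted p = 0.00494). CLCF1 against NC gave 0.31 ± 0.21 (edgeR adjusted p = 0.372), and libraries 1 and 2 alone gave 1.15, -0.93 and 0.22. The row was singled out after its values were seen and does not count among the 10 members. For the sum of the 4 rows described as Hsp90aa1, CO against NC gave 1.13 (edgeR adjusted p = 0.00176), and CLCF1 against CO turned from 0.22 for the named row to -0.74 (edgeR adjusted p = 0.015). The sum gave 0.39 in CLCF1 against NC (edgeR adjusted p = 0.218).

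**Figure D4:**
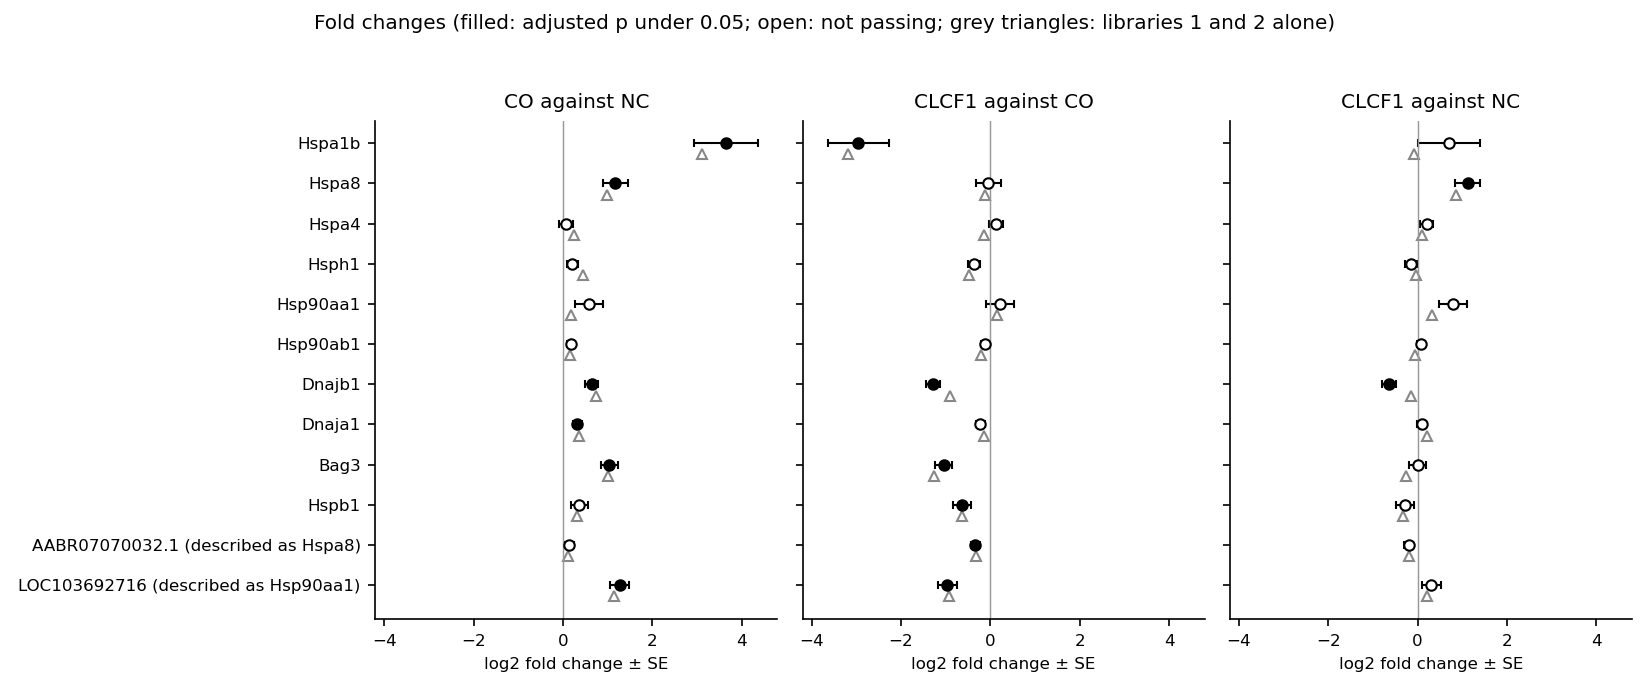
Log2 fold change and SE of the 10 members and 2 rows described as Hspa8 and Hsp90aa1 in the 3 comparisons. Filled points passed at an adjusted p under 0.05, and grey triangles are the values with libraries 1 and 2 alone. Hspa1b, Dnajb1 and Bag3 are filled on the right in CO against NC and on the left in CLCF1 against CO.

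Levels between genes were compared as CPM per kb of the length listed in the table. In NC libraries the order by median (lowest to highest library) was Hsp90ab1 at 701 (590 to 718), Dnaja1 at 191 (167 to 222), Hsph1 at 104 (78.2 to 107), Hspa4 at 60.1 (46.6 to 76.6) and Dnajb1 at 38.9 (32.5 to 43.7). Hspa8 followed at 9.64 (3.4 to 15.1), Hspb1 at 8.18 (5.32 to 11.4), Bag3 at 5.71 (4.74 to 6.94), Hsp90aa1 at 2.35 (1.89 to 5.99) and Hspa1b at 0.221 (0.0229 to 0.848). Neighbours from Hsp90ab1 to Hspa8 did not overlap over the 6 NC libraries. Hspa8, Hspb1, Bag3 and Hsp90aa1 overlapped with their neighbours, and Hspa1b lay below all of them. AABR07070032.1, at 439 (371 to 508), would come next after Hsp90ab1, and LOC103692716, at 19.7 (15.7 to 23.6), would stand between Dnajb1 and Hspa8. In CO libraries Hspa1b reached 4.17 ± 0.5 per kb, within the range of the named Hsp90aa1 row (2.38 to 6.55).

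The other chaperone genes were taken from 8 lists of 62 symbols, of which 61 were in the table and 57 were tested. In CO against NC, 6 were higher and 0 lower, against 6.32% higher and 6.4% lower of all genes tested, with a median log2 fold change of 0.08. HSP40 genes gave 3 of the 6. Dnajb4, close in sequence to Dnajb1, was at 47.4 to 78.8 CPM in NC, 92.6 to 127 in CO and 55.5 to 71.7 in CLCF1 libraries. CO libraries were above all others, with 0.75 ± 0.12 in CO against NC (edgeR adjusted p = 0.0011) and -0.77 ± 0.12 in CLCF1 against CO (edgeR adjusted p = 0.000672). Dnajb2, a neuronal HSP40, was higher by 0.29 (edgeR adjusted p = 0.0486) and then lower by -0.45 ± 0.09 in CLCF1 against CO (edgeR adjusted p = 0.00383). Dnaja2 was higher by 0.29 (edgeR adjusted p = 0.0323). The other 3 were HSP90 co-chaperones, the cyclophilin Ppid (0.36, edgeR adjusted p = 0.0271), Chordc1 (0.38, edgeR adjusted p = 0.0276) and Cdc37l1 (0.33, edgeR adjusted p = 0.0423). Of the 6, all but Dnajb4 lost the call when single libraries were left out (5 to 11 of the 12 libraries compared).

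In CLCF1 against CO, 0 of the 57 were higher and 9 lower, against 8.63% higher and 8.34% lower of all genes tested, with a median of -0.11. Beside Dnajb4, Dnajb2 and Chordc1 (-0.35, edgeR adjusted p = 0.0315), these were Dnajb5 (-0.57, edgeR adjusted p = 0.0264), Hspa14 (-0.44, edgeR adjusted p = 0.0254), Hspa12a (-0.55, edgeR adjusted p = 0.0443), Hspb2 (-1.20, edgeR adjusted p = 0.0419), Hspb6 (-0.35, edgeR adjusted p = 0.0312) and Hsf1 (-0.39, edgeR adjusted p = 0.0252). Hsf1 encodes heat shock factor 1 itself, and all 6 CLCF1 libraries were below all 6 CO libraries, as for 3.65% of the genes tested. It did not pass in CO against NC (0.27, edgeR adjusted p = 0.12) or in CLCF1 against NC (-0.12, edgeR adjusted p = 0.566). The Hsf1 call was lost without CO library 3 or CLCF1 library 5. Apart from Dnajb4 and Dnajb2, each of the 9 calls was lost when single libraries were left out. This held for 1 (Hspa14) to 8 (Hspb2) of the 12 libraries compared. CLCF1 against NC gave -0.01 for Dnajb4 (edgeR adjusted p = 0.964), -0.16 for Dnajb2 (edgeR adjusted p = 0.302) and 0.03 for Chordc1 (edgeR adjusted p = 0.905). Among the 57, 1 was higher and 2 were lower in CLCF1 against NC, against 4.43% higher and 4.84% lower of all genes tested, which is near the background. Ppid was higher (0.35, edgeR adjusted p = 0.0401), and Hspb2 (-1.67, edgeR adjusted p = 0.0133) and the heat shock factor Hsf4 (-1.39, edgeR adjusted p = 0.016) were lower, with a median of 0.0 over the 57. The Ppid call was lost without any 1 of 8 libraries. Genes of the chaperonin CCT (8 tested), of the mitochondrial chaperones (6 tested) and of the HSP70 exchange factors and partners (7 tested) did not pass in any comparison.

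**Figure D5:**
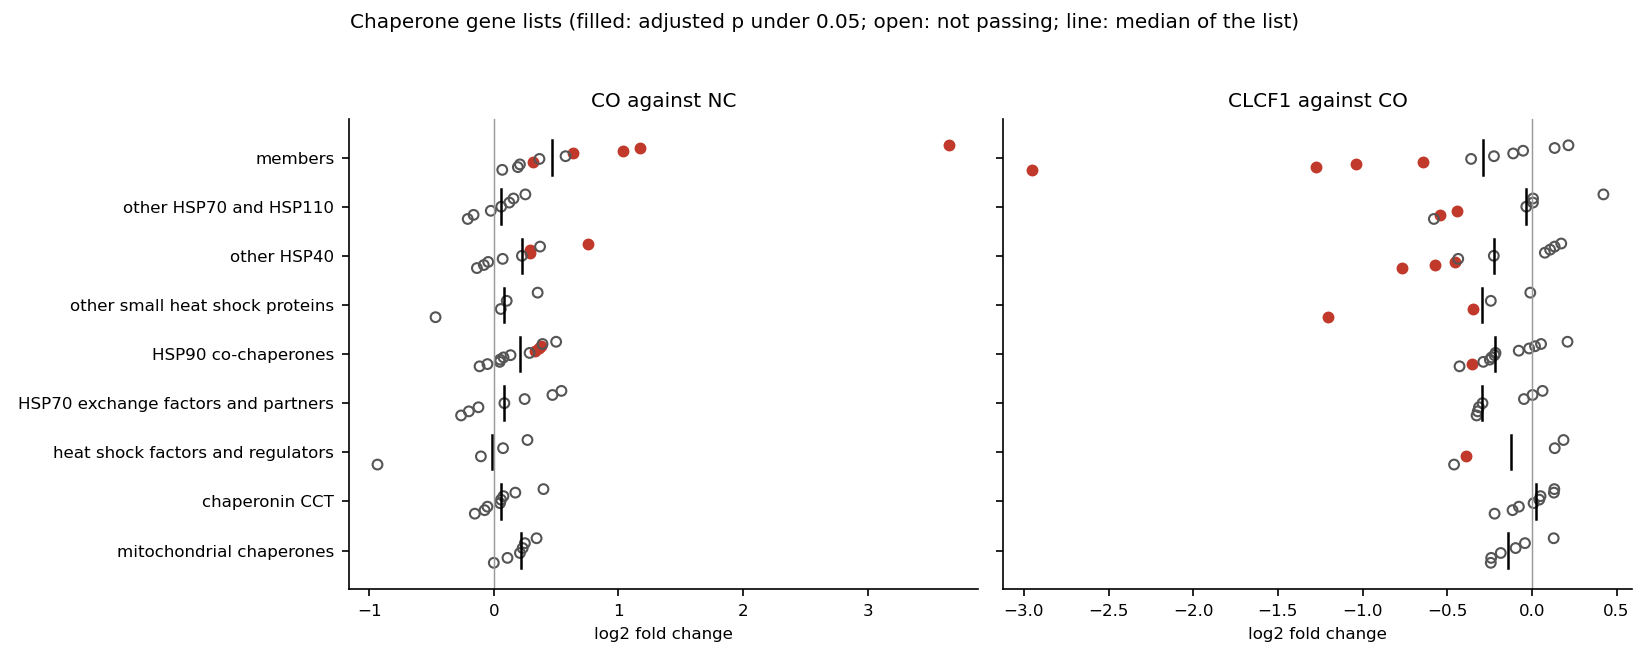
Log2 fold change of each tested gene in the members and the 8 related lists, in CO against NC (left) and CLCF1 against CO (right). Filled points passed at an adjusted p under 0.05, open points did not, and black lines are list medians, 0.47 and -0.29 for the members.

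Genes whose level ran most like that of 3 members over the 18 libraries are given as a description. For Hspa1b these were Pragmin (Pearson r = 0.901), LOC690617 (0.879) and LOC100911575 (0.869). Pragmin was at 23.6 ± 1.04 CPM in NC, 33.0 ± 0.956 in CO and 25.5 ± 1.94 in CLCF1 libraries. LOC690617 was at 15.4 ± 1.54, 23.7 ± 1.66 and 16.5 ± 0.499 CPM. LOC100911575 was at 3.29 ± 3.92 CPM in NC, 101 ± 46.8 in CO and 15.9 ± 11.3 in CLCF1 libraries. For the named Hspa8 row they were Pgm2l1 (0.873), Tmem33 (0.85) and Klhl21 (0.837), and for the named Hsp90aa1 row Hacd2 (0.805), Phf3 (0.795) and RGD1359290 (0.784). The libraries share groups, and genes with no count in libraries 1 and 2 of a group had none in libraries 3 to 6.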

How the data were processed

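RNA-seq of 18 rat brain libraries was analysed in 3 groups of 6, with groups and numbers as in the sample titles. Per the labels' protocols, 1.3 µg of total RNA went into each SMARTER mRNA-Seq library, and strandedness is not stated. A single table of raw counts, whole numbers without normalization, was deposited for all libraries. Neither aligner nor counter is given in the sources used here. The submitters' processing notes name the mouse builds GRCm38 and mm10, whereas the table's gene IDs and positions are those of rat, so positions are printed with no build.

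The count test was edgeR 4.0.16 (R 4.3.3): TMM scaling, filterByExpr (18292 genes removed), 1 robust quasi-likelihood fit over all 18 libraries, and Benjamini-Hochberg adjustment over 16581 genes with a threshold of 0.05. A standard error is the log2 fold change divided by the root of its F. CPM used TMM-scaled library sizes. In tests on simulated data with the design of CO against NC (16362 genes), 58% of genes changed by a log2 fold change of 1 and 4% of those changed by 0.58 were recovered. The simulation gave every gene the same dispersion (0.097) and changed few genes, drawn from those with higher counts, a range that leaves out Hspa1b. In the data the spread differs by gene, so these shares do not describe single members. Chi-square per degree of freedom between replicates was 39.1 to 70.8, so no pair of libraries differed by as little as sampling noise.

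The genes named are the 10 members and, from each list of related genes, those that passed (up to 4 by smallest p), plus the 3 genes with a mean log2 CPM above 2 that correlate best with each of Hspa1b, Hspa8 and Hsp90aa1. Members, lists and the fits on libraries 1 and 2 or 3 to 6 alone were chosen with earlier results of these data known. Other alternatives were DESeq2 1.42.0 (test or size factors), library size alone, no filter on low counts, a strict filter (mean CPM of 1 or more, and 10 counts in at least 6 libraries), only the 2 groups compared, the library number as a block, each library left out, a log2 fold change of 1 or more, the sum of Hspa1b and Hspa1a and, after seeing the data, the sums of rows described as Hspa8 or Hsp90aa1. Library numbers were not taken to pair samples. Promoters came from RefSeq.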

Additional observations from a re-analysis of the deposited data

Results flagged for a closer look

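In 4 of 36 groups of 6 values (the 10 members and 2 rows described as Hspa8 and Hsp90aa1, in 3 groups), 1 library stood apart from the other 5 by Dixon's criterion at 95%, at which chance flags about 1 in 20 groups. Hspb1 was at 3.53 CPM in CLCF1 library 4, where the next lowest CLCF1 library held 5.9 CPM. Hsph1 was at 269 CPM in NC library 1, below the next lowest NC library at 348 CPM. The named Hsp90aa1 row was at 13.2 CPM in NC library 1, with the next highest NC library at 6.58 CPM. Bag3 was at 43.6 CPM in CO library 5, above the next highest CO library at 29.1 CPM. The causes were not tested.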

How the results depend on the processing

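Of the 16581 genes tested, 2110 passed in CO against NC, 2814 in CLCF1 against CO and 1536 in CLCF1 against NC. In that order, a log2 fold change of 1 or more left 1088, 1468 and 913, no filter gave 4291, 5645 and 4292, libraries 1 and 2 alone gave 4, 8 and 2, and libraries 3 to 6 alone 918, 1436 and 736. DESeq2 gave 2334 in CLCF1 against NC. Of the members, 5, 4 and 2 passed. Libraries 1 and 2 alone left 0 in each comparison and libraries 3 to 6 alone left 3, 2 and 1, each from fewer libraries. The size limit left 3 in CO against NC and 1 in CLCF1 against NC. Leaving out each library in turn gave 1672 to 2137, 2427 to 3033 and 1219 to 1692 genes, and 4 to 5, 3 to 5 and 2 to 3 members. The cause of these shifts was otherwise not tested.

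Direction changed in 45 of the values computed for single genes, and 1 of the 45 passed in the alternative, the sum of the rows described as Hsp90aa1 in CLCF1 against CO (-0.74). The sum for Hspa8 in CLCF1 against NC gave -0.086, where the named row had passed. In CO against NC, libraries 3 to 6 alone gave -0.044 for Hspa12a and -0.037 for Hspa4, and libraries 1 and 2 alone -0.031 for Hspa14. In CLCF1 against CO, libraries 1 and 2 alone gave -0.13 for AABR07033324.1, -0.15 for Hspa4 and 0.053 for Ppid, and library size alone gave 0.0091 for Ppid. In CLCF1 against NC, Bag3 (0.00) gave -0.036 with the replicate block, -0.0098 with DESeq2 size factors, -0.0094 with library size alone, -0.0024 with no filter, -0.0072 with the stricter filter, -0.0093 with DESeq2, -0.015 with only the 2 groups and -0.26 with libraries 1 and 2 alone. There, libraries 1 and 2 alone gave 0.12 for Dnajb4, -0.048 for Hsp90ab1 and -0.070 for Hspa1b, and libraries 3 to 6 alone -0.025 for Chordc1 and -0.038 for LOC680121. Leaving out single libraries gave ranges of -0.036 to 0.15 for Hspa12a in CO against NC; -0.089 to 0.26 for AABR07033324.1, -0.15 to 0.019 for Hspa8 and -0.070 to 0.034 for Ppid in CLCF1 against CO; -0.12 to 0.082 for Bag3, -0.032 to 0.076 for Chordc1, -0.085 to 0.040 for Dnajb4 and -0.026 to 0.15 for LOC680121 in CLCF1 against NC.

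Library numbers were not taken to pair the samples. Deviations of same-numbered libraries from their group means correlated at -0.028 to 0.149, and 7 of 18 libraries correlated best with their own number. The correlations were 0.004 to 0.149 for numbers 1 and 2 and -0.028 to 0.023 for numbers 3 to 6. How many best matches chance would give was not computed. With the replicate block, 1944, 2787 and 1477 genes passed, and the members passing stayed at 5, 4 and 2. Of the 28 single genes followed, 3, 4 and 1 related genes lost the call.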
